A study of Homo sapiens with 6 samples.

Results

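The genes described here build and regulate epithelial cell junctions, together with an opposing group of genes of the epithelial-mesenchymal transition (EMT). They were the rows of the gene count table whose symbol equals one of 48 names, 40 epithelial and 8 EMT genes, out of 46427 genes in the table. All 48 were found, and 46 held enough reads to be tested. The rule used the symbols and no measured value, but the names were chosen with earlier results of these data known.

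HCT116 cells derive from a human colon carcinoma. RNA of parental HCT116 cells (*ZK3*-WT) was compared with that of an HCT116 line in which *ZKSCAN3*, which encodes a zinc-finger transcription factor, had been targeted by Cas9 and a guide RNA at the first exon's start codon (*ZK3*-KO), with 3 biological replicates per genotype. Both lines grew in DMEM with 10% fetal bovine serum and no other treatment is stated. Knockout cells were selected with puromycin and expanded from single cells, whereas the parental cells had not passed through such a step, so a genotype effect and a difference between clones cannot be told apart.

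Epithelial cells are held together by adherens junctions, in which cadherins are bound to catenins, by tight junctions, in which claudins and other membrane proteins seal the space between cells, and by desmosomes, which anchor keratin filaments. Polarity complexes place these junctions at the boundary of the apical and basolateral membranes. In EMT, transcription factors of the ZEB, SNAIL and TWIST families repress epithelial genes, and cells gain mesenchymal products such as vimentin, N-cadherin and fibronectin.

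Each library held between 60827060 and 69739215 counted reads. Counts were scaled with edgeR's TMM factors to CPM, counts per 1e6 reads of the scaled library, and values listed for a genotype are in the order of replicates 1, 2 and 3. *ZKSCAN3* itself was measured at 28.1, 23.4 and 19.8 CPM in *ZK3*-WT and 25.4, 24.9 and 13.6 CPM in *ZK3*-KO cells. This is a log2 fold change of -0.16 (SE 0.27, edgeR FDR 0.797), so the reads on this gene did not separate the genotypes. A count of reads does not show whether a small edit at the start codon is present. *ZK3*-KO replicate 3 stood apart from the other *ZK3*-KO libraries. Its correlation of log2 CPM across genes with them was 0.954 and 0.938, against 0.977 between those and 0.978 to 0.984 among *ZK3*-WT libraries. With *ZK3*-WT replicate 3 its correlation was 0.955, and with *ZK3*-WT replicates 1 and 2 it was 0.941. Of the 10 colon epithelial markers examined, *CDX1* had no read in any library, and *VIL1* and *LGALS4* had too few reads to be tested. The keratin genes *KRT8*, *KRT18* and *KRT19*, *EPCAM*, *CDH1* and *CDX2* were detected in all 6 libraries. Among leukocyte markers, *PTPRC* and *CD3E* had no read in any library, *LYZ* had 4 to 21 reads per library, and *CD68* had 1.69 to 10.1 CPM. Of 6 fibroblast markers, only *COL1A1* and *PDGFRB* had enough reads to be tested.

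One member passed the threshold between the genotypes. *PARD3*, which encodes a scaffold of the apical polarity complex, fell in *ZK3*-KO cells, and no member rose. Of 46 members tested by edgeR's quasi-likelihood test, 1 (2.17%) passed a false discovery rate (FDR) of 0.05, where 2.05% of all 18366 genes did (0.817% higher and 1.23% lower in *ZK3*-KO cells). At an unadjusted p under 0.05, 3 members had a positive and 4 a negative log2 fold change (15.2% of members, 18.4% of all genes). DESeq2 called 3 members (6.52%, against 8.2% of all genes), 1 higher and 2 lower, with 3.87% and 4.33% of all genes in these directions. With the replicate number as a block, edgeR called *PARD3* alone among the members, against 2.51% of all genes (0.969% higher, 1.54% lower). The libraries of the genotypes did not overlap in 10 members (21.7%), 6 of them higher and 4 lower in *ZK3*-KO cells, against 26.6% of all genes (12.7% and 13.8% in these directions). Over both directions, the share of members was close to or below that of all genes in each of these counts.

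**Figure D1:**
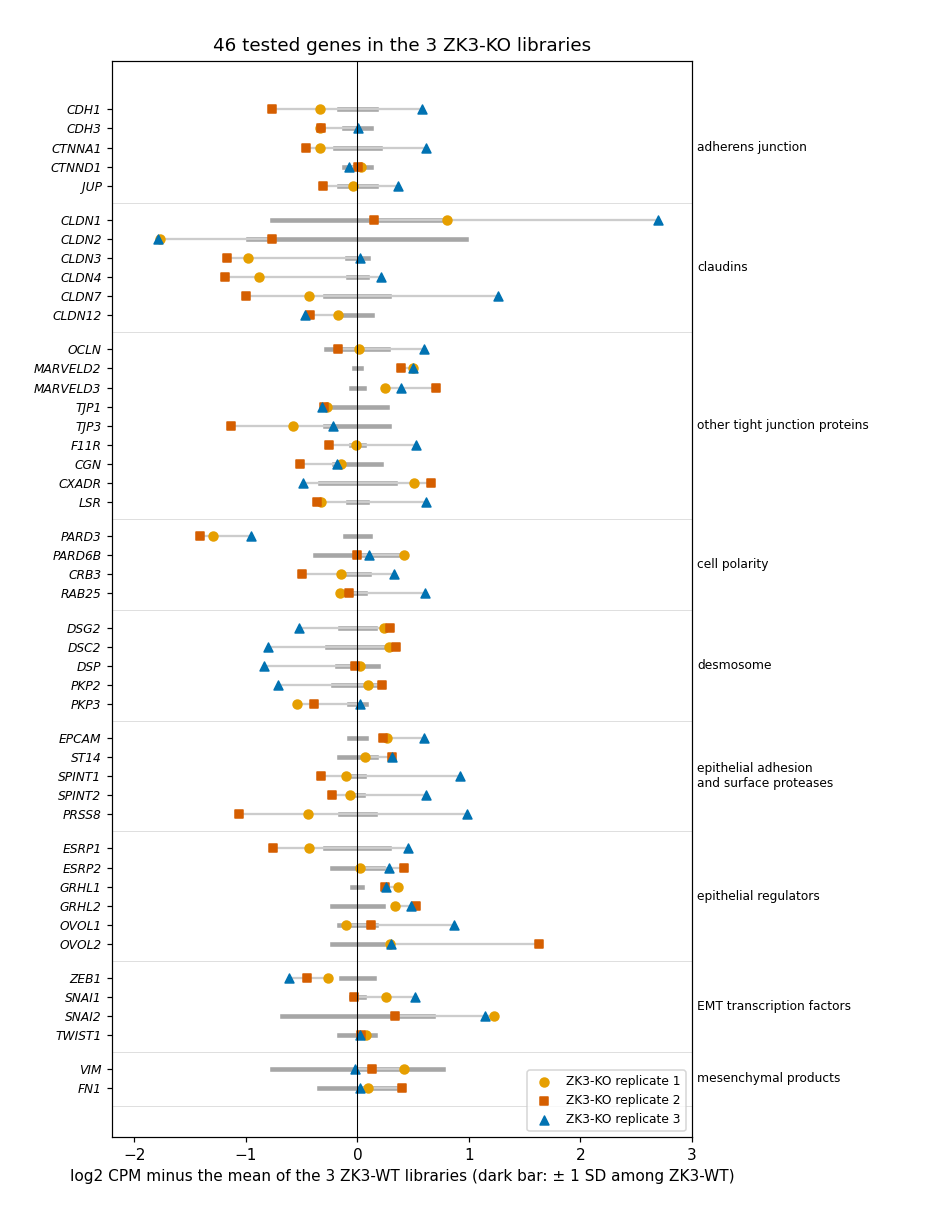
Log2 CPM of each tested member in each *ZK3*-KO library, relative to the mean of the 3 *ZK3*-WT libraries, with the members grouped by role and a dark bar for 1 SD of the *ZK3*-WT libraries to either side. *PARD3* lies well below the bar in all 3 libraries, *CLDN3*, *CLDN4*, *CLDN7* and *PRSS8* lie lower in replicates 1 and 2 than in replicate 3, and *DSG2*, *DSC2*, *DSP* and *PKP2* are lowest in replicate 3.

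The median log2 fold change (*ZK3*-KO over *ZK3*-WT) of the 40 epithelial members was 0.05, beside 0.02 over all genes tested. Of these members, 24 had a positive and 16 a negative value, but the sign of the median depended on scaling and libraries: it was -0.05 with library totals alone, -0.14 with limma on log2(TPM + 1), -0.02 with the replicate number as a block and -0.13 without *ZK3*-KO replicate 3. The 6 EMT members tested had a median of 0.10, with 5 positive values and 1 negative, and none had an unadjusted p under 0.05. In bulk RNA, fewer cells that express a gene and less RNA per cell cannot be told apart.

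The *ZK3*-KO libraries differed among themselves. Relative to the *ZK3*-WT mean, the median log2 CPM of epithelial members was -0.09, -0.24 and 0.31 in *ZK3*-KO replicates 1, 2 and 3. In 16 of the 40, replicates 1 and 2 lay below and replicate 3 above the *ZK3*-WT mean (40% of these members, 16.2% of all genes), and in 5 the order was the opposite (12.5%, against 15.6%). Replicate 3 was the highest of all 6 libraries in 18 epithelial members (45%, against 28.8% of all genes) and the lowest in 8 (20%, against 27.5%). The SD of log2 CPM was larger among *ZK3*-KO than among *ZK3*-WT libraries in 32 of 40 epithelial members (80%, against 72.8% of all genes). The epithelial keratin genes *KRT8*, *KRT18* and *KRT19* were also highest in *ZK3*-KO replicate 3, at 2332, 1449 and 1083 CPM, against at most 1656, 951 and 764 CPM elsewhere, while the keratin gene *KRT20* was lowest there, at 0.550 CPM against 0.869 to 1.84 CPM. The fibroblast marker *COL1A1* was highest in *ZK3*-KO replicate 3, at 98.8 CPM against at most 56.3 CPM, while the other tested fibroblast marker, *PDGFRB*, was lowest there at 0.405 CPM. The part of these differences in the members' order was not tested.

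Without *ZK3*-KO replicate 3, edgeR called 7 members at an FDR of 0.05, which is 15.2% of the 46, while the same 5 libraries gave calls for 15.8% of all genes. Of these members 1 was higher and 6 were lower in *ZK3*-KO cells, against 7.75% and 8.07% of all genes. *MARVELD2* was the member called higher, with a log2 fold change of 0.45 (FDR 0.0469). The members called lower were *PARD3* (-1.35, FDR 0.00101), *CLDN3* (-1.07, FDR 0.00726), *CLDN4* (-1.02, FDR 0.00328), *TJP3* (-0.85, FDR 0.0311), *PRSS8* (-0.72, FDR 0.0389) and *PKP3* (-0.46, FDR 0.0427). With all 6 libraries, all of them except *PARD3* missed the threshold.

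**Figure D2:**
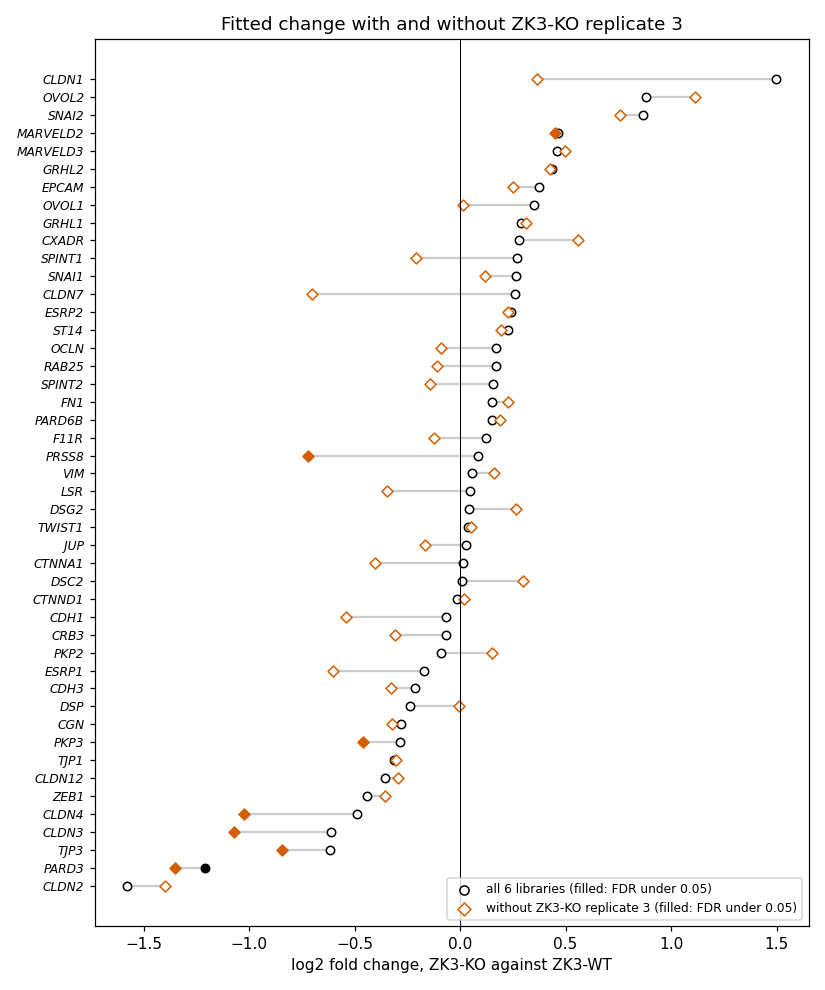
Log2 fold change of each tested member, 1 line per gene, with all 6 libraries (circles) and without *ZK3*-KO replicate 3 (diamonds), filled where edgeR's FDR was under 0.05. *CLDN3* and *CLDN4* lie at -1.07 and -1.02 without that library, *PARD3* is the only filled circle, and several genes, such as *CLDN7*, change sign.

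Levels between genes were compared as TPM, a share of all transcripts after division by transcript length. In *ZK3*-WT cells the mean was highest for *SPINT2*, which encodes a Kunitz-type inhibitor of serine proteases, at 359 TPM, followed by the adhesion gene *EPCAM* at 312 TPM and *CTNNA1*, the gene of alpha-catenin, at 289 TPM. *CDH1*, the gene of E-cadherin, had 64.3 TPM, below the 121 TPM of *CDH3*, the gene of P-cadherin. The EMT genes were lower than these, with 13.7 TPM for *SNAI1*, 11.2 TPM for *FN1*, 6.28 TPM for *VIM*, 3.55 TPM for *TWIST1*, 2.69 TPM for *ZEB1* and 0.133 TPM for *SNAI2*. Some epithelial members also lay below *SNAI1*, such as *CLDN2* at 2.39 TPM, *GRHL1* at 8.13 TPM and *OVOL1* at 9.63 TPM. The summed level of the 40 epithelial members was 3238, 3461 and 3410 TPM in *ZK3*-WT and 2958, 2725 and 3692 TPM in *ZK3*-KO cells, so *ZK3*-KO replicate 3 was the highest and the other *ZK3*-KO libraries the lowest. That of the EMT members was 38.2, 38.3 and 36.2 TPM against 41.4, 39.2 and 33.0 TPM, and the genotypes overlapped.

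**Figure D3:**
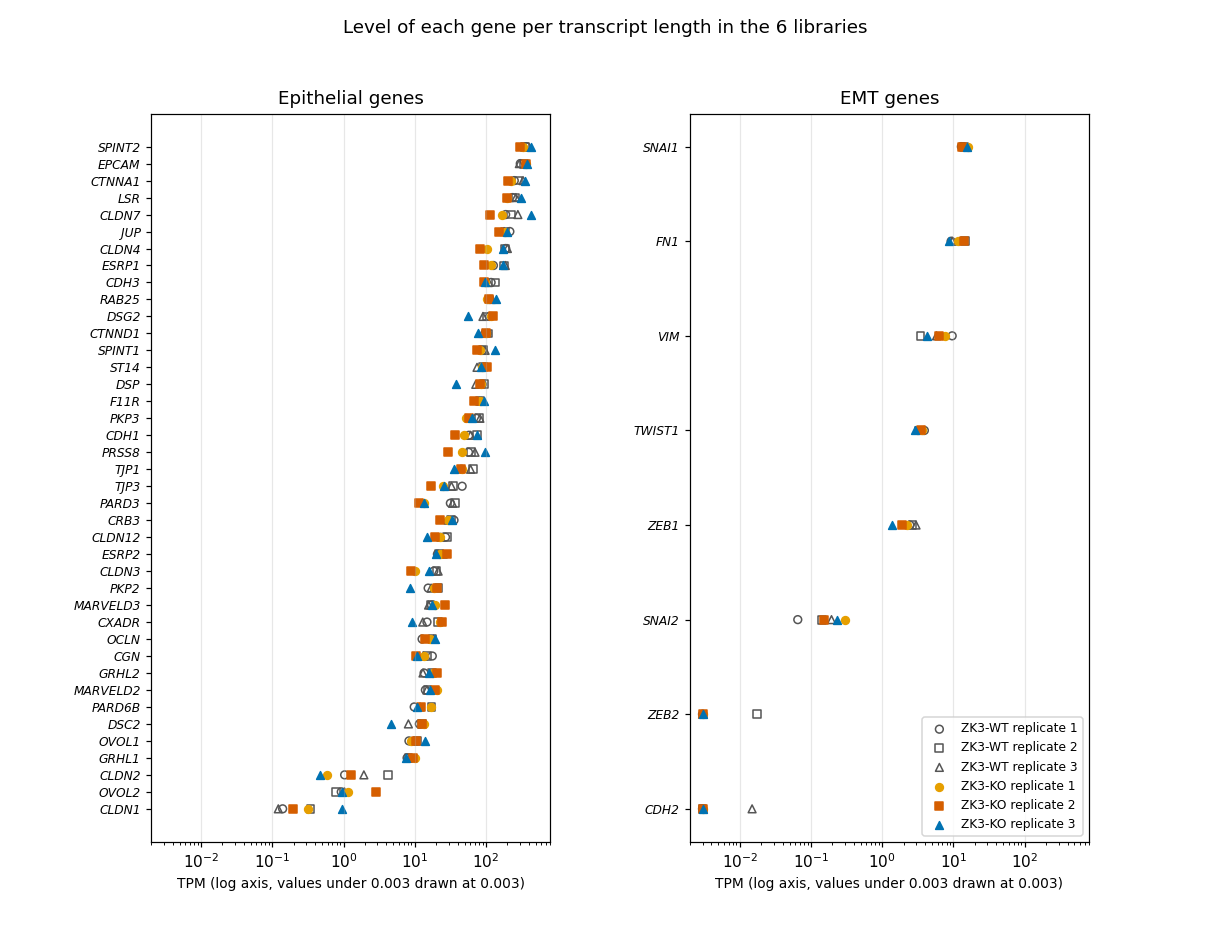
Level of each member in TPM on a log axis, with each of the 6 libraries as a point (open, *ZK3*-WT; filled, *ZK3*-KO), epithelial genes on the left and EMT genes on the right. Most epithelial members lie above the EMT members, values under 0.003 TPM are drawn at 0.003, and only *CLDN1*, *CLDN2* and *OVOL2* among the epithelial members reach down to about 1 TPM or less.

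None of the 5 adherens junction genes passed the threshold. *CDH1* was measured at 133, 166 and 139.6 CPM in *ZK3*-WT and at 115, 85.3 and 218 CPM in *ZK3*-KO cells. The *ZK3*-KO libraries held both the lowest and the highest value of the 6, and the genotypes overlapped. The means were 146 ± 17.5 and 139 ± 69.5 CPM (SD, n = 3 per genotype), with a log2 fold change of -0.07 (SE 0.33, edgeR FDR 0.938). The log2 fold changes of the other 4 genes lay between -0.21 for *CDH3* and 0.03 for *JUP*, the gene of plakoglobin. *CTNNA1* followed the order of *CDH1*, with 404, 370.4 and 781 CPM in *ZK3*-KO against 450.1 to 594 CPM in *ZK3*-WT libraries. *CTNND1*, the gene of p120-catenin, ranged only from 267 to 309.9 CPM over all 6 libraries.

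The claudin genes encode the membrane strands of tight junctions. In *ZK3*-KO replicate 3, *CLDN3*, *CLDN4* and *CLDN7* lay above the *ZK3*-WT mean, *CLDN3* by only 0.02 in log2 CPM. *DSP*, *DSG2* and *DSC2* lay below it. To show the regions next to these genes, the 250 bases upstream of the annotated start are given, from RefSeq on GRCh38.p14, 5′ to 3′ on the gene's strand. They are chr7:73770271-73770520 (minus strand) for *CLDN3*, chr7:73830746-73830995 (plus) for *CLDN4*, chr17:7263214-7263463 (minus) for *CLDN7*, chr6:7541421-7541670 (plus) for *DSP*, chr18:31497927-31498176 (plus) for *DSG2* and chr18:31102422-31102671 (minus) for *DSC2*. Capitals mark the E-box CAGGTG or its reverse complement CACCTG, letters known to be bound by ZEB and SNAIL factors.
CLDN3: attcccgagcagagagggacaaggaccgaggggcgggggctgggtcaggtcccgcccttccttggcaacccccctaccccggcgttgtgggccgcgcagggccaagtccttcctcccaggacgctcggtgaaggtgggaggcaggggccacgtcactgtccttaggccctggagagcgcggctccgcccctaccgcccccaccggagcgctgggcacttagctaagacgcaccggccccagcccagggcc
CLDN4: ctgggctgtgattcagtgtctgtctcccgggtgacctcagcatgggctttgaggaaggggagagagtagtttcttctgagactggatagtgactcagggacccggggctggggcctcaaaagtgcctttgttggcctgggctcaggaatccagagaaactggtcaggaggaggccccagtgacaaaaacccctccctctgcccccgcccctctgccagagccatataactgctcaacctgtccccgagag
CLDN7: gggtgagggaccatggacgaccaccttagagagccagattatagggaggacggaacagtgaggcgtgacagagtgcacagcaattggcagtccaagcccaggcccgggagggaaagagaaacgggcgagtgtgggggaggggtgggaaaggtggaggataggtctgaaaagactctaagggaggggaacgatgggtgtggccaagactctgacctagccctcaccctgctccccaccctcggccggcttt
DSP: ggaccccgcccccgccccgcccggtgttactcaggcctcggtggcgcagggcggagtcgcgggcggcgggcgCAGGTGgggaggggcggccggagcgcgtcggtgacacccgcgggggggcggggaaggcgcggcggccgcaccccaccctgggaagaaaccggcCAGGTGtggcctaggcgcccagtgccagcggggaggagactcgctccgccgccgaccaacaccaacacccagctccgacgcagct
DSG2: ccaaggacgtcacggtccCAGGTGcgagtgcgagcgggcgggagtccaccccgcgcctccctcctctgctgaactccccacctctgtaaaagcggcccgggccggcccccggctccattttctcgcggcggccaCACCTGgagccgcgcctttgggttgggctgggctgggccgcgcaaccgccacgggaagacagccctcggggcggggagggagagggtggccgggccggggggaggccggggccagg
DSC2: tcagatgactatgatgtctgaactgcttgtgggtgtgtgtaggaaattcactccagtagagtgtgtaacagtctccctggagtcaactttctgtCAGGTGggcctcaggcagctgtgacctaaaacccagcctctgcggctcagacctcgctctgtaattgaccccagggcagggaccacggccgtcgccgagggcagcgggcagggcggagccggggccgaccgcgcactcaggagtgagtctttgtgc
No match lay in the 3 claudin windows. There were 2 in that of *DSP*, at -178 to -173 and -85 to -80 from the start, 2 in that of *DSG2*, at -232 to -227 and -116 to -111, and 1 in that of *DSC2*, at -156 to -151. These 6 genes were picked after their values were seen. Other claudin genes had no match either: *CLDN1*, above the *ZK3*-WT mean in *ZK3*-KO replicate 3, and *CLDN2* and *CLDN12*, below it. The desmosomal gene *PKP3* lay above that mean by 0.02 in log2 CPM in the same library and had no promoter sequence here. *CRB3* and *RAB25*, which shared the order of *CLDN3*, *CLDN4* and *CLDN7*, held 5 and 1 matches. Of the 48 members, 26 had an entry in the RefSeq table, and the E-box in either orientation occurred in the 250 bases before the start in 8 (30.8%), against 4781 of all 27305 promoters (17.5%). The letters AACCGGTT, a palindromic form of the Grainyhead-like site, were in none of the 26 member windows and in 29 of all 27305 promoters (0.106%).

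*CLDN4* was measured at 154, 143 and 162 CPM in *ZK3*-WT and 82.9, 67.2 and 177 CPM in *ZK3*-KO cells. *CLDN3* had 11.3, 11.9 and 13.0 CPM against 6.09, 5.35 and 12.2 CPM, and *CLDN7* had 140.4, 161 and 208 CPM against 124, 84.1 and 403 CPM. In each of these barrier-forming claudins, *ZK3*-KO replicates 1 and 2 were the lowest libraries and replicate 3 lay in or above the *ZK3*-WT range. Their log2 fold changes over all libraries were -0.49 (SE 0.35, FDR 0.5002), -0.62 (SE 0.32, FDR 0.359) and 0.26 (SE 0.54, FDR 0.837) in edgeR's test.

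*CLDN2*, whose product forms a cation-permeable pore, had 1.57, 6.12 and 2.92 CPM in *ZK3*-WT and 0.885, 1.79 and 0.874 CPM in *ZK3*-KO cells. The genotypes overlapped, since *ZK3*-KO replicate 2 exceeded *ZK3*-WT replicate 1. The means were 3.54 ± 2.34 and 1.18 ± 0.525 CPM (SD, n = 3 per genotype), and the log2 fold change was -1.58 (SE 0.54), with an FDR of 0.193 in edgeR's test and 0.0484 in DESeq2. *CLDN12* had 45.4, 45.6 and 39.0 CPM against 38.3, 32.3 and 31.2 CPM, and every *ZK3*-KO library was below every *ZK3*-WT library. Its log2 fold change was -0.35 (SE 0.15, edgeR FDR 0.270), from means of 43.3 ± 3.76 and 33.9 ± 3.82 CPM (SD, n = 3 per genotype). The 43 genes tested within 5 Mb of *CLDN12* had a median log2 fold change of -0.21, against 0.04 over chromosome 7. A part of the region in the change of *CLDN12* was not tested. *CLDN1* was close to the limit of detection, with 14 to 39 reads in 5 libraries and 122 reads in *ZK3*-KO replicate 3. In the GRCh37 annotation, *CLDN2*, *CLDN7*, *MARVELD3* and *TJP3* overlap protein-coding genes on the opposite strand (*MORC4* and *RIPPLY1*, *ELP5*, *PHLPP2* and *APBA3* in turn), and *CLDN7* and *CLDN12* overlap others on their own strand. Opposite-strand overlaps of this kind also exist for *CTNNA1* (*LRRTM2*), *SPINT2* (*PPP1R14A*), *CRB3* (*SLC25A23* and *DENND1C*), *ESRP2* (*NFATC3*) and *OVOL2* (*MGME1*). Protein-coding genes on the same strand also overlap *CTNND1*, *F11R*, *SPINT2* and *OVOL2*. These overlaps are of whole gene spans, and overlap of exons was not examined. The strand setting of the counting is not given in the sources used here. How far reads of the overlapping genes entered these counts was not tested.

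Among the 9 other tight junction genes none passed the threshold, and the 3 with the smallest p-values did not share a direction. *MARVELD2*, the gene of tricellulin, which seals the corners where cells meet, was measured at 29.9, 30.6 and 31.1 CPM in *ZK3*-WT and 43.2, 40.04 and 43.2 CPM in *ZK3*-KO cells. The genotypes did not overlap and replicates lay close together. The means were 30.5 ± 0.621 and 42.2 ± 1.84 CPM (SD, n = 3 per genotype), with a log2 fold change of 0.47 (SE 0.13), an FDR of 0.122 in edgeR's test and 0.00965 in DESeq2. Its relative *MARVELD3* had 19.8, 19.0 and 18.2 CPM against 22.5, 30.9 and 25.0 CPM. All *ZK3*-KO libraries were above all *ZK3*-WT libraries, and the log2 fold change was 0.46 (SE 0.17, edgeR FDR 0.209), from means of 19.0 ± 0.796 and 26.1 ± 4.30 CPM (SD, n = 3 per genotype). *TJP3*, which encodes the zonula occludens scaffold ZO-3, had 68.3, 48.6 and 48.2 CPM against 36.4, 24.7 and 46.6 CPM. All *ZK3*-KO libraries lay below all *ZK3*-WT libraries, replicate 3 only narrowly. Its log2 fold change was -0.62 (SE 0.26, edgeR FDR 0.265), from means of 55.1 ± 11.49 and 35.9 ± 10.95 CPM (SD, n = 3 per genotype).

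Of the remaining tight junction genes, *TJP1* (ZO-1) and *CGN* (cingulin, which links junctions to actomyosin) had negative log2 fold changes of -0.31 and -0.28. *OCLN*, the gene of occludin, *F11R*, which encodes a junctional adhesion molecule, and *LSR*, a component of tricellular junctions, had values of 0.17, 0.12 and 0.05. *CXADR*, the coxsackievirus and adenovirus receptor of junctions, had 38.5, 52.9 and 33.6 CPM in *ZK3*-WT and 58.2, 64.4 and 29.1 CPM in *ZK3*-KO cells. *ZK3*-KO replicates 1 and 2 were the highest libraries and replicate 3 the lowest. *CXADR* lies on chromosome 21, where the median log2 fold change over tested genes was -0.39, while that of *CXADR* was 0.28 (SE 0.31, edgeR FDR 0.687).

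*PARD3* (GRCh37 chr10:34398488-35104253, minus strand) encodes the scaffold that joins PAR6 and atypical protein kinase C at the tight junction. It was measured at 78.7, 91.5 and 87.5 CPM in *ZK3*-WT and 34.9, 32.2 and 44.3 CPM in *ZK3*-KO cells. Every *ZK3*-KO library was below every *ZK3*-WT library by a margin wider than the spread within either genotype. The means were 85.9 ± 6.59 and 37.1 ± 6.35 CPM (SD, n = 3 per genotype), with a log2 fold change of -1.21 (SE 0.17, edgeR FDR 0.0184), resting on 2231 to 6417 reads per library. The direction held in all 13 alternatives, with log2 fold changes between -1.35 and -1.12, but the call was lost when 1 of 5 libraries was left out: FDR was 0.0680, 0.124 and 0.103 without *ZK3*-WT replicates 1, 2 and 3 in turn and 0.0984 and 0.0553 without *ZK3*-KO replicates 1 and 2. The tested genes of chromosome 10 had a median log2 fold change of -0.01, and the 28 tested within 5 Mb of *PARD3* a median of -0.04, with 1 past the threshold.

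The other polarity members did not pass the test. *PARD6B*, a binding partner of *PARD3*'s product, had a log2 fold change of 0.15 (SE 0.23), the apical determinant *CRB3* -0.07 (SE 0.23) and *RAB25*, an epithelial recycling GTPase, 0.17 (SE 0.22). *CRB3* and *RAB25* were highest in *ZK3*-KO replicate 3.

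**Figure D4:**
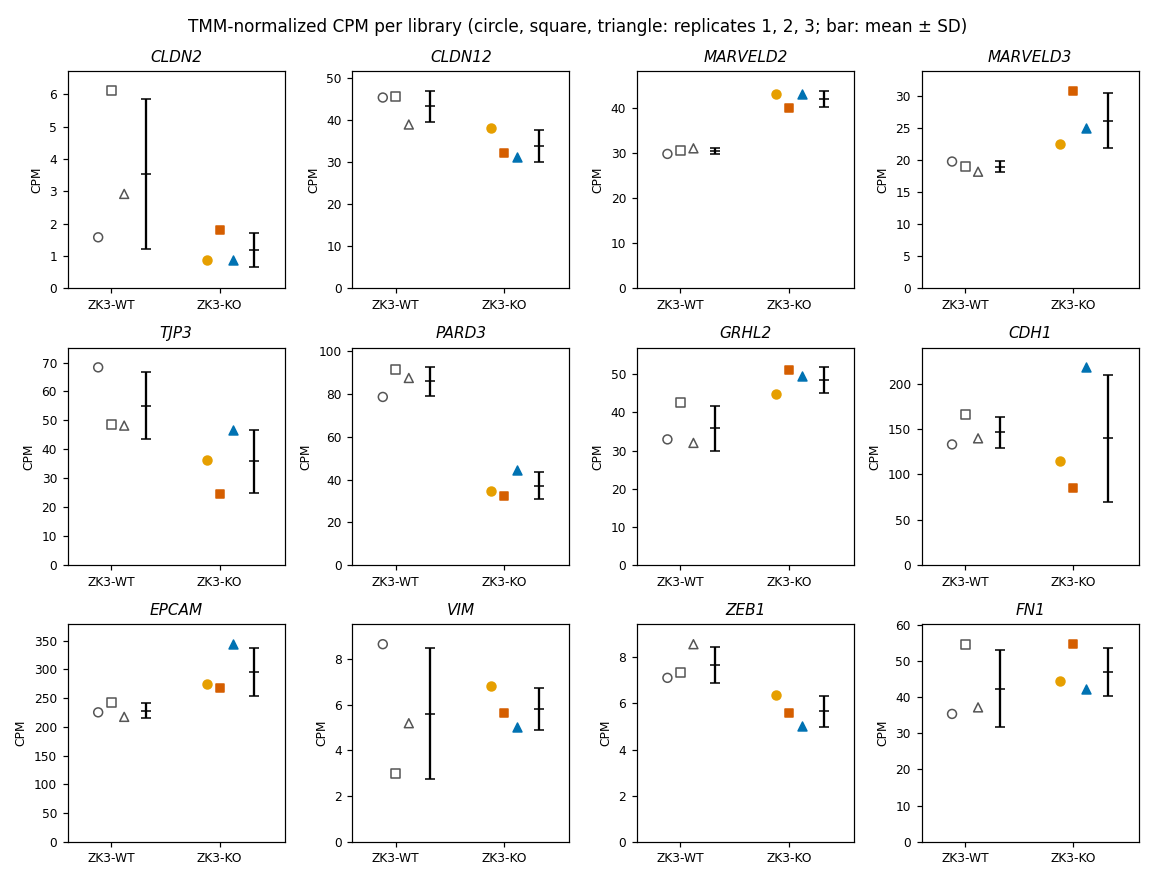
CPM in each library for the members described in full, 1 panel per gene, with each library as a point and the mean and SD of 3 libraries per genotype beside them. *PARD3* shows the clearest separation, and in *CDH1* the *ZK3*-KO libraries span from 85.3 to 218 CPM.

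No desmosomal gene passed the threshold, and most had their lowest level in *ZK3*-KO replicate 3. *DSP*, the gene of desmoplakin, which ties the plaque to keratin filaments, had 385, 394 and 314 CPM in *ZK3*-WT and 368, 356 and 203 CPM in *ZK3*-KO cells. The desmosomal cadherin gene *DSG2* had 305, 272 and 245 CPM against 322, 335 and 190.0 CPM, and *DSC2* had 68.9, 62.3 and 47.9 CPM against 71.6, 74.8 and 33.9 CPM. For both cadherins, *ZK3*-KO replicates 1 and 2 were the highest of the 6 libraries and replicate 3 the lowest, the reverse of *CLDN7* and *CTNNA1*. The plaque gene *PKP2* had the same order relative to the *ZK3*-WT mean, while its relative *PKP3* had 71.5, 79.3 and 106 CPM in *ZK3*-KO against 99.3 to 111 CPM in *ZK3*-WT libraries. Log2 fold changes of the 5 genes lay between -0.29 and 0.04.

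*EPCAM*, which encodes an adhesion protein of simple epithelia, was measured at 225, 242 and 217 CPM in *ZK3*-WT and 274, 268 and 344 CPM in *ZK3*-KO cells. The genotypes did not overlap, and *ZK3*-KO replicate 3 was the highest library. The means were 228 ± 12.6 and 295 ± 42.2 CPM (SD, n = 3 per genotype), with a log2 fold change of 0.37 (SE 0.16, edgeR FDR 0.273). The membrane proteases and their inhibitors had log2 fold changes of 0.23 for *ST14* (matriptase), 0.08 for *PRSS8* (prostasin), 0.27 for *SPINT1* and 0.15 for *SPINT2*, none past the threshold. *PRSS8* varied most, with 40.1, 26.2 and 108 CPM in *ZK3*-KO against 50.2 to 61.6 CPM in *ZK3*-WT libraries. *SPINT1* and *SPINT2* likewise had their highest level in *ZK3*-KO replicate 3 and their lowest in replicate 2.

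Among the regulators that maintain epithelial expression, *GRHL2*, which encodes a Grainyhead-like factor that activates junction genes, had 32.9, 42.6 and 31.99 CPM in *ZK3*-WT and 44.8, 51.2 and 49.5 CPM in *ZK3*-KO cells. All *ZK3*-KO libraries were above all *ZK3*-WT libraries, *ZK3*-KO replicate 1 by little. The means were 35.8 ± 5.87 and 48.5 ± 3.31 CPM (SD, n = 3 per genotype), with a log2 fold change of 0.44 (SE 0.16, edgeR FDR 0.219). *GRHL1* also did not overlap, at 13.4 to 14.2 CPM against 16.3 to 17.7 CPM (log2 fold change 0.29, SE 0.14, edgeR FDR 0.337). The splicing regulator genes *ESRP1* and *ESRP2* had log2 fold changes of -0.17 and 0.24, and *OVOL1* and *OVOL2*, which encode repressors of EMT factors, 0.35 and 0.88. *OVOL2* was low throughout, below 1 CPM in all libraries except *ZK3*-KO replicate 2.

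Of the EMT transcription factors, *ZEB2* had 6 reads in 1 *ZK3*-WT library and none in the other 5 libraries, and it was not tested. *ZEB1* was measured at 7.11, 7.33 and 8.57 CPM in *ZK3*-WT and 6.37, 5.60 and 5.00 CPM in *ZK3*-KO cells. Its genotypes did not overlap and the *ZK3*-KO libraries were lower. The means were 7.67 ± 0.785 and 5.65 ± 0.684 CPM (SD, n = 3 per genotype), with a log2 fold change of -0.44 (SE 0.19, edgeR FDR 0.285). *SNAI1* had a log2 fold change of 0.26 (SE 0.19) and *TWIST1* of 0.04 (SE 0.22), and *SNAI2*, at 5 to 21 reads per library, had 0.87 (SE 0.51). None of the 3 passed the test.

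The mesenchymal products did not separate the genotypes. *VIM*, the gene of vimentin, had 8.65, 3.00 and 5.19 CPM in *ZK3*-WT and 6.83, 5.62 and 5.03 CPM in *ZK3*-KO cells. The *ZK3*-KO values lay inside the range of the *ZK3*-WT values. The means were 5.61 ± 2.85 and 5.83 ± 0.917 CPM (SD, n = 3 per genotype), with a log2 fold change of 0.06 (SE 0.37, edgeR FDR 0.958). *FN1*, the gene of fibronectin, had 35.3, 54.5 and 37.1 CPM against 44.3, 54.6 and 42.2 CPM. The genotypes overlapped, with means of 42.3 ± 10.6 and 47.0 ± 6.63 CPM (SD, n = 3 per genotype) and a log2 fold change of 0.15 (SE 0.21, edgeR FDR 0.747). *CDH2*, the gene of N-cadherin, had 3 reads in *ZK3*-WT replicate 3 and none elsewhere. A count of 0 allows up to 3 reads, at most 0.0485 CPM in these libraries and covering counting error only. In the libraries without a read, a level of *CDH2* or *ZEB2* below that bound was therefore not detectable.

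Other genes of the same machinery were examined as 115 further genes in 6 lists, of which 83 were tested. Of these, 5 passed the threshold (6.02%, against 2.05% of all genes), 2 higher and 3 lower in *ZK3*-KO cells. The lists were drawn up with earlier results of these data known, so these shares are not a test of the lists. No further gene of the adherens junction, tight junction, polarity or desmosome lists was among the 5. In the polarity list, partners of *PARD3*'s product include the atypical protein kinases C. Their genes had log2 fold changes of -0.41 for *PRKCI* (SE 0.16, edgeR FDR 0.227) and 0.12 for *PRKCZ* (SE 0.18, edgeR FDR 0.757). *CDC42*, which encodes the GTPase that activates the complex, had 0.42 (SE 0.15, edgeR FDR 0.191). The PAR6 genes *PARD6A* and *PARD6G* had -0.24 (SE 0.24, edgeR FDR 0.645) and -2.4e-05 (SE 0.28). These genes were picked for their role after the results were known.

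All 5 genes past the threshold belonged to the lists of regulators, markers and EMT products. *EHF*, which encodes an epithelial ETS factor, fell from 136, 193 and 135 CPM to 0.543, 1.14 and 0.761 CPM, a log2 fold change of -7.56 (SE 0.35, edgeR FDR 5.03e-04). *SPARC*, which encodes a matrix protein, fell from 12.02, 24.7 and 17.6 CPM to 0.217, 0.361 and 0.307 CPM (-5.93, SE 0.38, edgeR FDR 0.00120). *S100A4*, which encodes a calcium-binding protein often used as a mesenchymal marker, fell from 116, 118 and 94.6 CPM to 4.22, 10.2 and 9.18 CPM (-3.80, SE 0.34, edgeR FDR 0.00469). These 3 were past the threshold in all 13 alternatives, and every *ZK3*-KO library lay far below every *ZK3*-WT library. *S100A4* overlaps *S100A3* on the same strand in the GRCh37 annotation.

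The 2 further genes that rose were *GRHL3*, a relative of *GRHL2*, and *ACTA2*, the gene of smooth muscle actin. *GRHL3* had 0.270, 0.257 and 0.157 CPM in *ZK3*-WT and 3.99, 1.87 and 1.20 CPM in *ZK3*-KO cells (log2 fold change 3.36, SE 0.53, edgeR FDR 0.0282). *ACTA2* had 4.39, 5.42 and 5.52 CPM against 11.1, 9.61 and 11.8 CPM (1.09, SE 0.19, edgeR FDR 0.0387). Neither overlapped between the genotypes, and the calls were less stable than those of the genes that fell, with *GRHL3* past the threshold in 7 and *ACTA2* in 6 of 13 alternatives and FDR reaching 0.154 and 0.182. Both calls were lost when any 1 library other than *ZK3*-KO replicate 3 was left out. Both overlap genes on the opposite strand in the GRCh37 annotation.

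**Figure D5:**
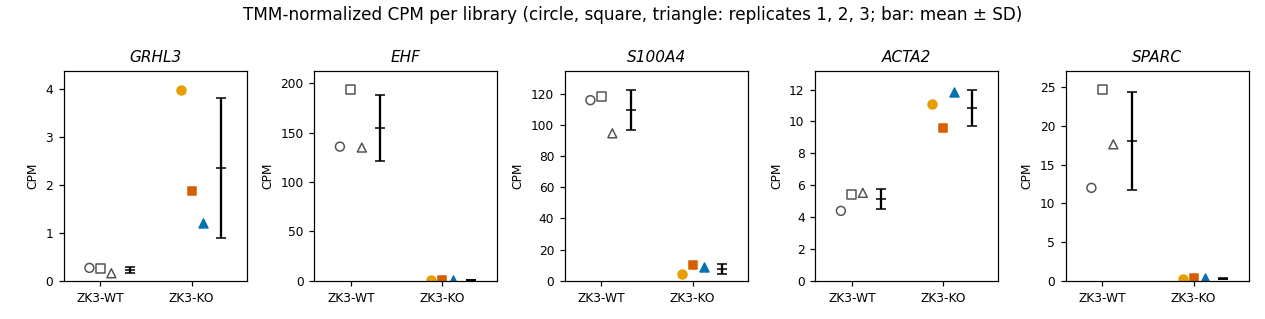
CPM in each library for the 5 further genes that edgeR called at an FDR of 0.05, 1 panel per gene with its own linear axis from 0, with each library as a point and the mean and SD of 3 libraries per genotype beside them. *EHF*, *SPARC* and *S100A4* are lower and *GRHL3* and *ACTA2* higher in all 3 *ZK3*-KO libraries than in any *ZK3*-WT library.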

How the data were processed

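Polyadenylated RNA of 3 *ZK3*-WT and 3 *ZK3*-KO cultures was sequenced as stranded libraries. The authors deposited 1 table with raw counts of reads per gene, FPKM and TPM values on NCBI Gene identifiers. The submitters' processing notes name Bowtie2 2.2.5 and hg19. The study's methods place alignment and quantification in Partek Flow with an Ensembl annotation, and the strand setting of the counting is not given in the sources used here. The deposited counts were tested, the deposited TPM values gave levels between genes and 1 alternative, and the deposited FPKM values were not used.

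edgeR 4.0.16 was run in R 4.3.3 on the counts. Genes were filtered with filterByExpr (18366 kept) and normalized by TMM, and genotype was fitted alone with the quasi-likelihood test and Benjamini-Hochberg adjustment over all genes tested (FDR 0.05). Settings changed 1 at a time were DESeq2 1.42.0, upper-quartile factors, library totals alone, at least 1 read in all libraries together, at least 10 reads in every library, the replicate number as a block, limma 3.58.1 on log2(TPM + 1) and each library left out in turn. Of the genes past the threshold, 39.9% were higher in *ZK3*-KO cells, and 23% with limma on TPM, which moved the median log2 fold change of all genes by -0.10. P-values measure the spread between these cultures only.

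The members, lists and rules were chosen with earlier results of these data known. The members described in full were those past an FDR of 0.05 or an unadjusted p of 0.05, with *CDH1*, *EPCAM*, *VIM*, *ZEB1*, *CDH2* and *FN1*. The values of *CLDN3*, *CLDN4*, *CLDN7*, *CTNNA1*, *CXADR*, *GRHL1*, *PRSS8*, *PKP3* and of the desmosomal genes were chosen for display after they were seen. Of the further genes, those past the threshold were named, and *PRKCI*, *PRKCZ*, *CDC42*, *PARD6A* and *PARD6G* were named for their role. As a check of pairing, deviations from the genotype mean were correlated across genes between libraries that share a replicate number, which gave 0.231 (number 1), 0.102 (number 2) and 0.389 (number 3), all over 0.1, against -0.295 to 0.182 for other pairs. What the numbers mark is not given in the sources used here. Gene positions came from a GENCODE annotation of GRCh37 matched by symbol, and promoter sequences from RefSeq on GRCh38.p14. One marker gene examined is not reported here.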

Additional observations from a re-analysis of the deposited data

How the results depend on the processing

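The number of genes at an FDR below 0.05, 376 by edgeR, was 1506 in DESeq2 and between 49 and 2907 when 1 library was left out, with 2907 without *ZK3*-KO replicate 3. Members called higher in *ZK3*-KO cells numbered 0, against 1 in DESeq2 and 0 to 1 with a library left out. Members called lower numbered 1, against 2 in DESeq2 and 0 to 6 with a library left out, where 6 came without *ZK3*-KO replicate 3 and 0 without each of the other 5 libraries. Of the further genes 5 passed, against 15 in DESeq2, 3 with limma on log2(TPM + 1) and 3 to 21 with a library left out. The median log2 fold change of the EMT members was 0.10, against 0.027 with library totals alone, 0.020 with limma on log2(TPM + 1) and 0.050 to 0.18 with a library left out. The sign turned without the threshold being passed for 3 genes described in full: *CDH1* ranged from -0.54 to 0.19, *VIM* from -0.25 to 0.51 and *ZKSCAN3* from -0.30 to 0.085 with a library left out, and *VIM* was -0.020 with library totals alone. Without *ZK3*-KO replicate 3, *PRSS8* turned from 0.08 to -0.72 and passed the threshold, and *CLDN7* turned from 0.26 to -0.70 and did not. The causes were not tested, and a library left out also leaves fewer samples. With the replicate number as a block, which pairs the libraries, 461 genes passed, and *PARD3* (FDR 0.0215 in edgeR) was again the only member called, so no member's call changed. Genes below about 20 reads per library, such as *SNAI2*, are limited by depth.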
